A study of Mus musculus with 2 samples.

Results

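Regulatory T cells were taken from single-cell RNA profiles of the islets of Langerhans of NOD mice, a strain that develops autoimmune diabetes. A cell barcode counted as a regulatory T cell when it carried at least 1 unique molecular identifier (UMI, the tag that marks 1 captured RNA molecule) of Foxp3 and at least 1 of the CD3 genes Cd3d, Cd3e or Cd3g. It also had to carry 0 UMIs of Cd8a and Cd8b1, 0 of the B cell genes Cd79a and Ms4a1, at most 1 of the macrophage genes C1qa, C1qb and C1qc, and at most 1 of the cell-cycle genes Mki67, Top2a, Birc5 and Ube2c. Islet hormone genes (Ins1, Ins2, Gcg, Sst and Ppy) had to make up under 10% of its UMIs. The cells were thus chosen by their measured UMIs of these genes, and levels of the rule's genes are a description and not a finding. The rule found 177 cells among the 15142 barcodes that passed the quality filters, of 15958 barcodes in all. They were 56 cells of the first library and 121 of the second.

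Both libraries came from handpicked islets of 15-week-old wild-type NOD/ShiLtJ mice, and each pooled the cells of 3 mice. The first group ate a diet labelled 16% HC + 4% gluten, and the second ate HC alone at 20%. The abbreviation HC is not spelled out in the labels. Each diet is thus 1 library, so diet, mouse pool and library cannot be told apart, and no test of diet was possible. Below, values are given first for the library with gluten and then for the library with HC alone.

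Regulatory T cells are CD4 T cells that hold other immune cells in check, and Foxp3 encodes the transcription factor that defines the lineage. They take up interleukin 2 through a receptor whose alpha chain is Il2ra (CD25), and they withdraw costimulation from other T cells through Ctla4. Helios (Ikzf2) and the costimulatory receptor OX40 (Tnfrsf4) are widely used as further markers. In NOD mice, loss of regulatory T cells is known to speed up the attack on beta cells.

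The regulatory T cells held 184520 and 592154 UMIs in sum, with medians of 2277 and 2985 UMIs and of 1142.5 and 1410 genes per cell. They were compared with Foxp3-negative CD4 T cells, which met the same rule with 0 Foxp3 UMIs and at least 1 Cd4 UMI (208 and 540 cells). The other comparison was with CD8 T cells, which carried a Cd8 UMI, no Cd4 UMI and 0 Foxp3 UMIs (295 and 485 cells). Median UMIs of these classes were 2374 and 2733.5 for CD4 and 2566 and 3234 for CD8 T cells. Levels are given as CPM, the UMIs of a gene per 1000000 UMIs of the class in that library, with 95% exact Poisson intervals in square brackets that cover counting error only. The 2 libraries shared 15 barcode sequences, and no regulatory T cell was among them.

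Foxp3 itself stood at 455 and 317 CPM, which the rule fixed in part. It was a sparse readout: 38 of 56 and 80 of 121 cells carried a single Foxp3 UMI, and the highest count was 6 in each library. Cells known not to use Foxp3 carried it far less often. Among B cells, 0 of 1076 and 0 of 1180 carried a Foxp3 UMI, which allows shares of up to 0.279% and 0.254% (median 2132 and 2705.5 UMIs). Among beta cells it was 1 of 1388 and 1 of 1626, at median depths of 27950.5 and 37129 UMIs. Among T cells with no Cd8 UMI, which met every other term of the rule, the shares were 6.14% and 7.42% at median depths of 2107.5 and 2609 UMIs. A few CD8 T cells also carried Foxp3, 5 of 300 (1.67%) and 10 of 495 (2.02%), and these were left out of the CD8 class compared here.

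The label fitted the 4 markers that the rule did not use. Il2ra stood at 97.6 CPM [57.8, 154] and 74.3 CPM [54.0, 99.8] in regulatory T cells, against 10.3 and 16.6 CPM in Foxp3-negative CD4 and 5.04 and 3.84 CPM in CD8 T cells. Ctla4 stood at 818 and 444 CPM, against 434 and 186 CPM in CD4 and 288 and 84.0 CPM in CD8 T cells. For Ikzf2 the levels were 677 and 701 CPM, against 201 and 168 CPM in CD4 and 82.7 and 124 CPM in CD8 T cells. Tnfrsf4 stood at 537 and 880 CPM, against 310 and 259 CPM in CD4 and 67.6 and 30.7 CPM in CD8 T cells. Each of the 4 was thus higher in regulatory T cells than in both other classes of the same library. The CPM values of the classes did not overlap across libraries either, and the smallest gap was that of Ctla4. There the CD4 T cells with gluten stood at 434 CPM [386, 486] and the regulatory T cells with HC alone at 444 CPM [392, 501]. These intervals overlap. The share of all genes with such a gap is not given, so the gap is a description and lends no weight to the label.

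**Figure D1:**
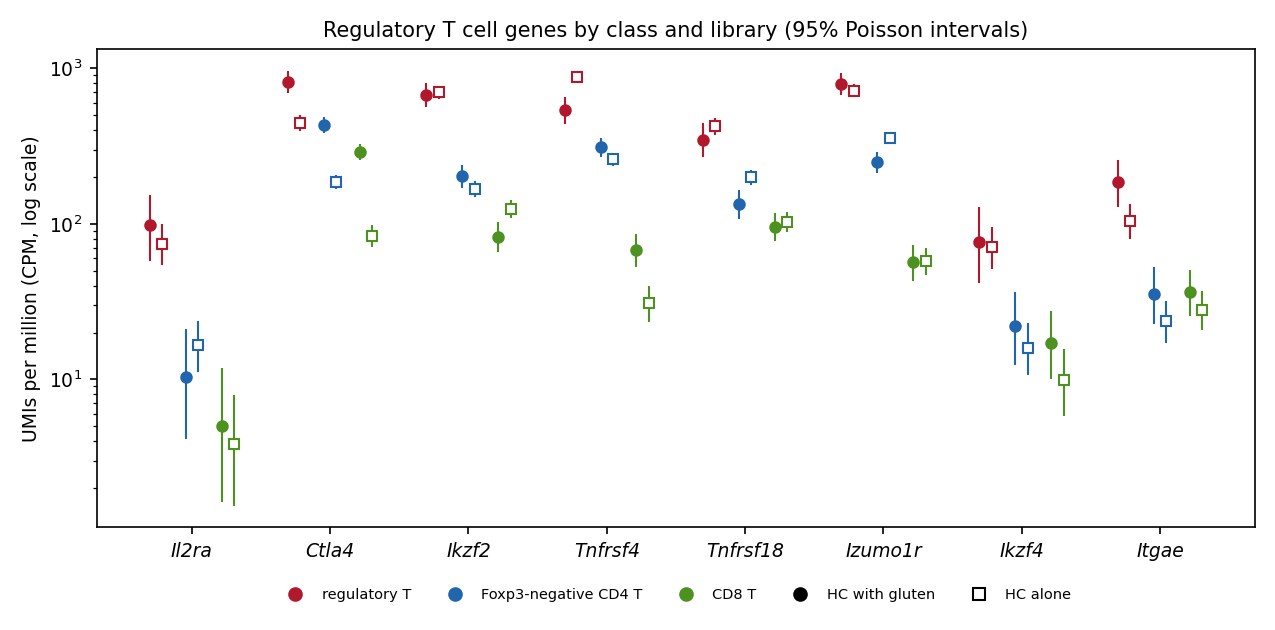
Levels of 8 regulatory T cell genes (vertical axis, CPM on a log scale) in regulatory T, Foxp3-negative CD4 T and CD8 T cells. Filled circles are the library with gluten, open squares the library with HC alone, and bars are 95% Poisson intervals; for Ikzf2 the regulatory T cells stood at 677 and 701 CPM and the CD4 T cells at 201 and 168 CPM.

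Single regulatory T cells carried several of these markers together more often than cells of the other classes. At least 3 of Il2ra, Ctla4, Ikzf2 and Tnfrsf4 were detected in 31 of 56 (55.4%) and 61 of 121 (50.4%) regulatory T cells, against 13.5% and 10.0% of CD4 and 2.71% and 1.44% of CD8 T cells. After every cell was thinned to 1500 UMIs, which evens out depth, the shares were 34.0% and 21.4%, 5.85% and 3.51%, and 0.364% and 0.213%. Ctla4 was detected in 83.9% and 68.6% of the regulatory T cells, Ikzf2 in 69.6% and 80.2%, Tnfrsf4 in 71.4% and 73.6%, and Il2ra in 21.4% and 22.3%. The gene for the CD4 coreceptor, which the rule did not require, was detected in 17 of 56 (30.4%) and 49 of 121 (40.5%).

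**Figure D2:**
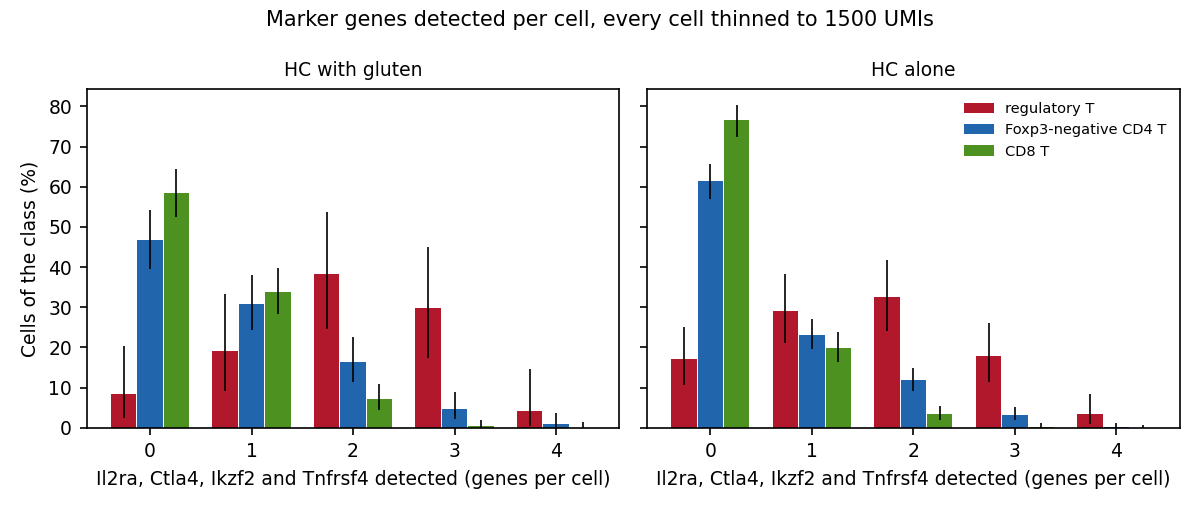
Share of cells (vertical axis, % of the class) that carried 0 to 4 of the genes Il2ra, Ctla4, Ikzf2 and Tnfrsf4 (horizontal axis) after thinning each cell to 1500 UMIs, with exact 95% binomial intervals as bars. Regulatory T cells sit to the right of the other classes in both libraries, with at least 3 genes in 34.0% and 21.4% of cells.

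Levels of Il2ra, Tnfrsf4 and Ctla4 around the Foxp3 threshold are given here as a description, without Ikzf2. T cells with 0 Foxp3 UMIs that met the other terms had Il2ra at 10.7 and 13.3 CPM, cells with 1 Foxp3 UMI at 57.9 and 43.9 CPM, and cells with 2 or more at 173 and 132 CPM. Tnfrsf4 went from 226 and 180 CPM at 0 to 512 and 873 CPM at 1 and to 582 and 892 CPM at 2 or more Foxp3 UMIs. Ctla4 went from 343 and 124 CPM at 0 to 785 and 483 CPM at 1, with 882 and 370 CPM at 2 or more. With HC alone Ctla4 was thus lower at 2 or more than at 1. For Ctla4 and Tnfrsf4 the cells with a single Foxp3 UMI lay nearer to those with more than to those with 0, whereas Il2ra was higher at each step.

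Some regulatory T cells also held RNA of other lineages. At least 10 UMIs of antigen-presentation (MHC class II and Cd74), macrophage, dendritic, endothelial or stromal, or exocrine acinar markers were present in 9 of 56 and 16 of 121 cells, which had median UMIs of 6978 and 14812 against 2061 and 2835 in the others. A single cell of the library with gluten held 4902 of the 4954 acinar UMIs of all 56 cells. The 17 B cell markers summed to 9387 and 9940 CPM over 10 and 13 detected genes, and of these Pax5 and Cd22 were at 0, as were Cd79a and Ms4a1 by rule. The 13 macrophage markers summed to 3490 and 3435 CPM, with Adgre1 at 0. RNA of beta cell genes was present in every regulatory T cell (10 or more UMIs in 56 of 56 and 121 of 121, median 43 and 33 UMIs), at similar medians in CD4 (43 and 30) and CD8 T cells (42 and 30). Results are therefore given for all members and again without the mixed-lineage cells, which leaves 47 and 105 regulatory T cells with 121233 and 372762 UMIs. This second setting was chosen after the data were seen, and since it used these markers, their own levels in it are not results.

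The first question was which genes set regulatory T cells apart from other CD4 T cells in the same islets. With all members, 8 of 6713 tested genes were higher (0.119%) and 3 were lower (0.0447%) by edgeR's quasi-likelihood test with the library as a block and Benjamini-Hochberg adjustment, at an adjusted p under 0.05. With 2 libraries of pooled mice, these p-values rest on how far the difference between classes varied from library to library. That variation was moderated over genes, and the spread between mice was not measured. The calls held Ikzf2, the integrin gene Itgae (CD103, which binds E-cadherin on epithelia) and Pglyrp1, a peptidoglycan recognition protein, beside the myeloid or antigen-presentation genes Rnase6, Cst3, H2-Aa and Cd74 and the transcription factor Irf8. Lower were Dapl1, S1pr1, the receptor that guides lymphocytes out of tissue, and Klf2, the transcription factor known to drive S1pr1.

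Ikzf2 held 125 and 415 UMIs in regulatory T cells and 137 and 304 UMIs in the far larger CD4 class, and its log2 fold change was 1.83 (SE 0.19, edgeR adjusted p 0.0071 after Benjamini-Hochberg). Itgae stood at 184 and 105 CPM against 35.3 and 23.7 CPM, with a log2 fold change of 2.15 (edgeR adjusted p 0.0139). S1pr1 stood at 37.9 and 55.7 CPM against 126 and 193 CPM, a log2 fold change of -1.86 (edgeR adjusted p 0.0249). Dapl1 had 0 and 2 UMIs against 24 and 167 UMIs. In each of these the 2 libraries of 1 class lay on the same side of both libraries of the other. This is a description, since the share of all genes that did so is not given. Il2ra (log2 fold change 2.42, edgeR adjusted p 0.0578), Ctla4 (1.01, adjusted p 0.0634) and Tnfrsf4 (1.22, adjusted p 0.0791) did not pass in this setting.

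Without the mixed-lineage cells, 104 of 5117 genes were higher (2.03%) and 141 lower (2.76%) by the same test. Of the 11 genes called with all members, 8 were called again. Of the 245 genes called here, 243 had the same direction with all members. The 2 settings share most of their cells, so this count is a description and not a check. DESeq2 called 47 genes in this setting. With all members, edgeR called 0 genes when the library block was dropped (368 at an unadjusted p under 0.05) and 0 when the 6% of cells with the highest doublet scores were left out (500), while DESeq2 called 19 with the block. The gene lists below are described by their counts and medians beside those of all genes, with no test of a list. They were chosen with earlier results of these data known, so their counts are a description and not independent support.

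As a description, the regulatory T identity genes were higher as a group. Of the 17 tested, 12 rose and 0 fell without mixed-lineage cells, and the median log2 fold change was 1.26, against -0.02 over all genes tested. With all members, 2 of 18 rose and the median was 1.18. Il2ra stood at 124 and 93.9 CPM against 13.1 and 15.4 CPM (log2 fold change 2.64, SE 0.38, edgeR adjusted p 5.7e-08). Ikzf2 stood at 866 and 942 CPM against 262 and 173 CPM (2.01, SE 0.17). Its relative Ikzf4 (Eos) stood at 82.5 and 91.2 CPM against 30.6 and 16.7 CPM (1.97, SE 0.37). The receptors of the tumour necrosis factor family Tnfrsf4 (1.41), Tnfrsf18 (GITR, 1.09), Tnfrsf9 (4-1BB, 1.77) and Tnfrsf1b (1.07) all rose, as did Ctla4 (1.15), the folate receptor family gene Izumo1r (1.26), the actin-capping gene Capg (1.44), Itgae (2.26) and the orphan receptor Gpr83. Gpr83 had 3 and 19 UMIs in regulatory T cells and 0 UMIs in the CD4 T cells with gluten. Nrp1 (0.81, adjusted p 0.0938), Il2rb (0.59, adjusted p 0.0817), Cd83, Nt5e and Socs2 did not pass.

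**Figure D3:**
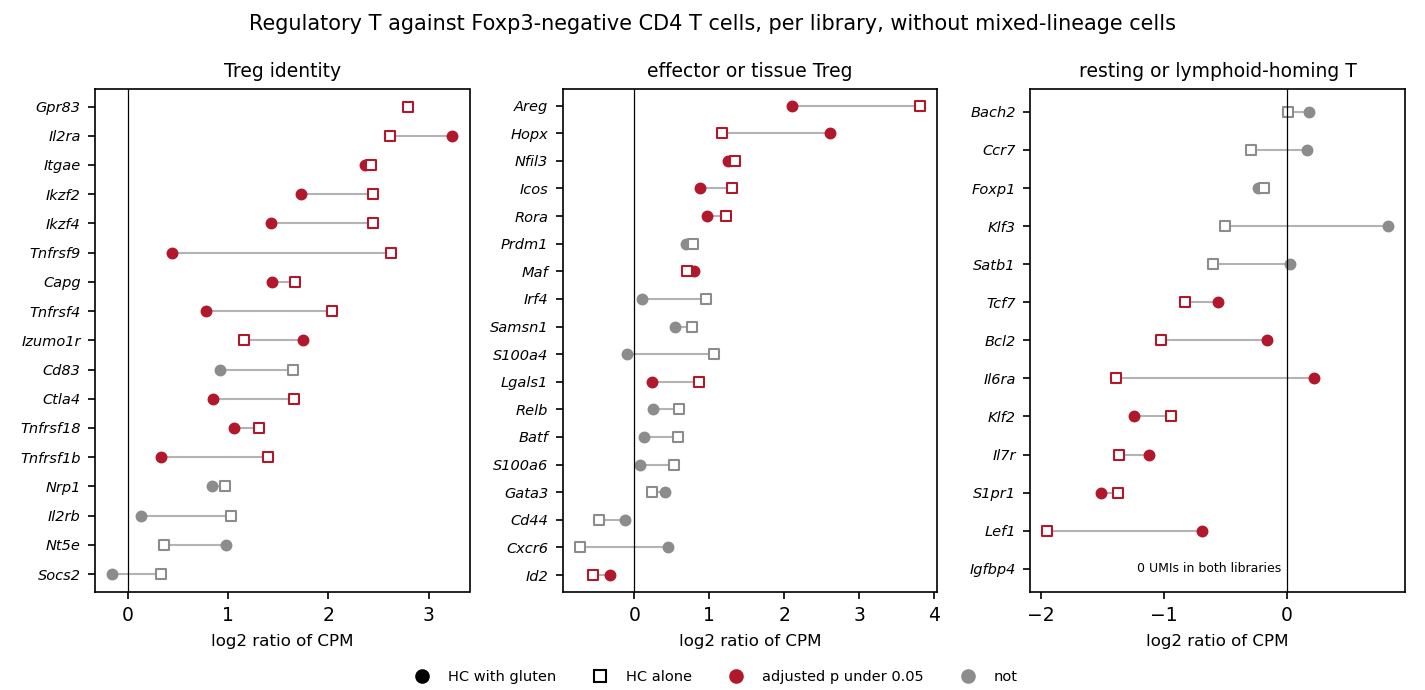
Log2 ratio of CPM in regulatory T over Foxp3-negative CD4 T cells (horizontal axis) per library, without mixed-lineage cells, for genes of 3 lists; filled circles are the library with gluten, open squares HC alone, red marks an edgeR adjusted p under 0.05, and a library with 0 UMIs in either class has no point. Identity genes lie mostly to the right (median fitted log2 fold change 1.26) and resting genes mostly to the left (median -1.02), with Igfbp4 at 0 UMIs in both libraries of regulatory T cells.

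Genes of effector or tissue-resident regulatory T cells rose in part. Of 18 tested, 7 rose and 1 fell, and the median log2 fold change was 0.54; with all members 0 passed and the median was 0.35. Areg, a growth factor of the epidermal growth factor family linked to tissue repair, stood at 132 and 37.6 CPM against 30.6 and 2.67 CPM (2.55, SE 0.45). With HC alone 10 of its 14 UMIs lay in 1 cell, and the call without that cell was not tested. The costimulatory receptor Icos stood at 503 and 343 CPM against 273 and 140 CPM (0.99, SE 0.19). The transcription factors Nfil3 (1.16), Rora (0.98), Hopx (1.52) and Maf (0.60) and the galectin gene Lgals1 (0.49) rose, and Id2 fell by 0.60 on the log2 scale. Gata3 (0.16), Prdm1 (0.62), Irf4 (0.57) and Batf (0.28) did not pass.

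Of the suppressor effector genes, 5 of 8 tested rose and 0 fell without mixed-lineage cells, and 0 of 11 passed with all members. Itgb8, the integrin chain that releases active transforming growth factor beta, stood at 49.5 and 80.5 CPM against 8.75 and 23.4 CPM (1.76, SE 0.40). The cytokine gene Il10 stood at 57.7 and 115 CPM against 63.4 and 21.4 CPM (edgeR adjusted p 0.0007), so the call came from the library with HC alone. The same held for Gzmb, at 8.25 and 80.5 CPM against 43.7 and 6.68 CPM, where the libraries pointed in opposite directions and 19 of the 30 UMIs with HC alone lay in 1 cell. Lgals1 and Ctla4 were the other members that rose, and both also belong to other lists. Tgfb1 (0.49) and Lag3 (0.44) were higher in both libraries and did not pass.

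Genes of resting or lymphoid-homing T cells were lower. Of 14 tested, 8 fell and 0 rose, with a median of -1.02; with all members 2 fell and the median was -0.96. Igfbp4 had 0 and 0 UMIs in regulatory T cells against 51 and 237 UMIs in CD4 T cells, which makes it at least 4.51-fold and 19.7-fold lower against a floor of 3 counts per library. With all members it had 0 and 45 UMIs, 32 of the latter in 1 cell, and stood at 0 and 76.0 CPM against 332 and 159 CPM, which did not pass (edgeR adjusted p 0.298). The Wnt-pathway transcription factor genes Lef1 (82.5 and 96.6 CPM against 133 and 372 CPM) and Tcf7 (157 and 164 CPM against 232 and 291 CPM) fell by 1.80 and 0.88 on the log2 scale. The interleukin 7 receptor gene Il7r stood at 90.7 and 172 CPM against 197 and 443 CPM (-1.44, SE 0.22). S1pr1 (-1.54), Klf2 (-1.18), Bcl2 (-0.94) and Il6ra (-1.11) were the other members that fell. Il6ra and Bcl2 drew their calls mainly from HC alone (45.6 against 120 CPM for Il6ra), since with gluten Il6ra stood at 66.0 against 56.8 CPM. Ccr7 (-0.24, adjusted p 0.765) did not pass.

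Outside these lists the largest increases included Epcam, an epithelial adhesion molecule (82.5 and 75.1 CPM against 8.75 and 10.7 CPM; log2 fold change 2.76, SE 0.42). Serpina3g, a serine protease inhibitor, stood at 297 and 212 CPM against 50.3 and 43.4 CPM (2.24, SE 0.25). Pglyrp1 stood at 181 and 126 CPM against 37.2 and 21.4 CPM (2.32, SE 0.29), and the fatty acid binding protein gene Fabp5 at 190 and 91.2 CPM against 45.9 and 30.7 CPM (1.61). Irf8 stood at 41.2 and 153 CPM against 28.4 and 29.4 CPM (1.92), so its call came mainly from HC alone. With gluten it was detected in 5 of 47 cells at 1 UMI each. With HC alone 12 UMIs (21.1%) lay in 1 cell. Arl5a (1.53), Fam129a (1.53) and 1600014C10Rik (1.72) completed the 15 increases named by rule. The immunoglobulin heavy chain gene Ighm, a B cell marker, also stood higher, at 858 and 703 CPM against 247 and 243 CPM. It was detected in 34 of 47 and 77 of 105 regulatory T cells, and the source of this RNA was not tested.

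The largest decreases held genes of helper and cytotoxic function. Cd40lg, the ligand by which helper T cells activate B cells, had 0 and 4 UMIs against 13 and 83 UMIs. The chemokine gene Ccl3 had 0 and 4 UMIs against 22 and 55 UMIs, and the natural killer receptor gene Klrd1 had 1 and 1 against 13 and 47 UMIs. Themis, a T cell receptor signalling gene, stood at 33.0 and 13.4 CPM against 50.3 and 86.9 CPM (-2.19, SE 0.43). Spp1 (osteopontin) had 1 and 1 UMIs against 20 and 98 UMIs. Of 10 cytotoxic genes tested 6 fell and 2 rose, Gzmb and Cst7. Among 4 tested helper cytokines Ifng (115 and 80.5 CPM against 149 and 229 CPM, -1.30) and Tnfsf11 (-1.60) fell and Ltb rose (0.40).

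The remaining lists moved less. Of 17 chemokine receptor and homing genes Itgae and Ccr2 (82.5 and 107 CPM against 26.2 and 41.4 CPM, 1.29) rose and S1pr1 and the integrin gene Itgb1 (-1.01) fell. Of 21 interferon response genes 4 rose and 0 fell, with a median of 0.30. These included Ly6a (Sca-1, 965 and 869 CPM against 286 and 337 CPM, 1.39) and the guanylate-binding protein genes Gbp3 (1.43) and Gbp7 (0.75). The last was Irf8, where the call came mainly from HC alone. In the interleukin 2 axis Il2ra and the feedback inhibitor Cish (140 and 75.1 CPM against 54.7 and 28.7 CPM, 1.24) rose, Bcl2 fell, and the other 10 of 13 tested did not pass. The 14 MHC class I and 9 heat shock genes tested held 0 calls by edgeR's test. Of the 19 immediate early genes tested 0 rose and 1 fell, and of the 13 genes of the mitochondrial genome 4 fell and 0 rose.

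The upstream sequences of the 5 markers and of the genes with the largest increases against CD4 T cells, which are not all identity genes, were searched for 2 motifs, on both strands, in the 250 bases before each RefSeq start site on GRCm38.p6. Of 18 genes looked up, 13 had an entry, with 17 windows. The forkhead core TGTTTAC was found in 0 of 17 windows and in 3.17% of all 32851 promoters. The STAT-type repeat TTCNNNGAA, the kind of element that interleukin 2 signalling acts through, was found in 4 of 17 windows (23.5%) of 4 genes and in 7.02% of all promoters. The matches are shown with 10 bases on either side, 5′ to 3′ on the plus strand, with the motif in capitals, to show how far the matched letters differ between genes. A match is a description and not a binding site.
Foxp3, chrX:7580334-7580362: gagctctgttTTCCAAGAAcgggcattag
Serpina3g, chr12:104236104-104236132: taagttatagTTCCCAGAAatcacccggt
Irf8, chr8:120736177-120736205: caaaagtgatTTCTCGGAAagagagcgct
Irf8, chr8:120736195-120736223: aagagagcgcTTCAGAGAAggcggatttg
Tnfrsf9, chr4:150927853-150927881: caacagctgaTTCCAAGAAacccttcaga
The matches start 139 bases before the start site for Foxp3, 33 for Serpina3g, 171 and 153 for Irf8 and 136 for Tnfrsf9. The Foxp3 gene itself (ENSMUSG00000039521) spans chromosome X from 7573644 to 7595245 on the plus strand of the same assembly, and the Il2ra gene (ENSMUSG00000026770) spans chromosome 2 from 11642807 to 11693193. The Tnfrsf9 gene spans chromosome 4 from 150914562 to 150946102 on the plus strand. The Foxp3 and Tnfrsf9 matches thus lie inside the annotated genes, before start sites within these spans. The Il2ra, Ctla4 and Tnfrsf4 windows held neither motif.

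The second question was how regulatory T cells differ from CD8 T cells of the same islets. With all members, 180 of 7091 genes were higher (2.54%) and 191 lower (2.69%) by edgeR's quasi-likelihood test with Benjamini-Hochberg adjustment. Without mixed-lineage cells, 252 of 5687 were higher (4.43%) and 287 lower (5.05%), and 297 of the 371 genes called with all members were called again. All 17 tested identity genes rose without mixed-lineage cells (median log2 fold change 2.72, all genes -0.03).

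Tnfrsf4 stood at 660 and 1132 CPM in regulatory T cells and 57.0 and 33.1 CPM in CD8 T cells (log2 fold change 4.26, SE 0.21). Izumo1r stood at 1039 and 867 CPM against 59.8 and 60.0 CPM (3.74, SE 0.20). Maf, a transcription factor of interleukin 10 producing T cells, stood at 289 and 370 CPM against 16.7 and 22.5 CPM (3.85, SE 0.24). Il10 had 7 and 43 UMIs against 0 and 2 UMIs, although the CD8 class held more UMIs in sum. Serpina3g (4.37), Itgb8 (4.48), Areg (4.36), Capg (3.16), Ikzf4 (3.13), Arl5a (3.49) and the Rac activator Tiam1 (3.66) were among the other large increases, with Angptl2, Neb and A630023P12Rik.

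Of 14 cytotoxic genes 12 fell and 0 rose against CD8 T cells, with a median of -3.22. Gzma, Gzmm and Klrc1 were at 0 UMIs in both libraries of regulatory T cells, against 49 and 38 UMIs of Gzma and 38 and 79 UMIs of Klrc1. The chemokine gene Xcl1 had 8 and 0 UMIs against 520 and 914 UMIs, and Nkg7 stood at 346 and 373 CPM against 1953 and 1853 CPM. Gzmb did not differ in a steady direction (8.25 and 80.5 CPM against 65.4 and 49.4 CPM, edgeR adjusted p 0.97). The T cell receptor gamma genes Tcrg-C2 and Tcrg-C4 and the genes Klrc2, Sema4a and Tnfsf4 were also at 0 in both libraries of regulatory T cells in this setting. With all members, 1 cell with HC alone held 4 UMIs each of Tcrg-C2 and Tcrg-C4. The delta chain gene Trdc had 11 UMIs in 2 of 47 regulatory T cells with gluten, 9 of them in 1 cell, and 0 UMIs with HC alone. Dapl1 and Igfbp4, both at 0 without mixed-lineage cells, were at least 33.3-fold and 13.8-fold lower with HC alone. With all members, Dapl1 stood at 0 and 3.38 CPM against 128 and 241 CPM, and Igfbp4 at 0 and 76.0 CPM against 162 and 176 CPM in CD8 T cells. Of the resting genes 8 of 14 fell and 0 rose, with a median of -0.79.

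The regulatory T cells were next compared among themselves, by Ikzf2. Classes cut at 1 UMI are ranges and not cell types. Cells with an Ikzf2 UMI (39 of 56 and 97 of 121) were deeper than those without, with medians of 2395 and 3136 against 1926 and 2434.5 UMIs. Of 1667 genes 1 was higher (0.06%) and 2 lower (0.12%) by edgeR's quasi-likelihood test. The gene that rose was Tnfrsf9, a receptor induced by T cell receptor stimulation (edgeR adjusted p 0.0004 after Benjamini-Hochberg). It had 24 and 92 UMIs in Ikzf2-positive against 0 and 2 UMIs in Ikzf2-negative cells. The negative cells held far fewer UMIs in sum, 52874 and 79557 against 131646 and 512597. As CPM, Tnfrsf9 stood at 182 and 179 in positive against 0 and 25.1 in negative cells. The genes called lower, named after their values were seen, were the acinar gene Prss2 (13 and 2 against 674 and 0 UMIs) and the stromal and vascular gene Igfbp7 (13 and 213 against 0 and 127 UMIs). Each was lower in 1 library only and pointed the other way in the other, and 672 of the Prss2 UMIs lay in 1 cell. Without mixed-lineage cells 0 of 1255 genes passed by edgeR or DESeq2, with 104 genes at an unadjusted p under 0.05 by edgeR and 7 by DESeq2.

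Regulatory T cells made up 0.739% [0.559, 0.959] and 1.60% [1.33, 1.91] of the quality-filtered barcodes (exact 95% binomial intervals, counting error only). The difference was -0.860 percentage points [-1.21, -0.521]. Among CD3 carriers the shares were 3.32% and 4.68%, a difference of -1.37 points [-2.53, -0.144]. Among T cells that met the other terms of the rule they were 6.14% and 7.42%, a difference of -1.28 points [-3.23, 0.829]. So the interval of the difference lay below 0 over all barcodes, which also count how many other cells were recovered, and over CD3 carriers. Over T cells that met the other terms it included 0. Each diet is 1 library, so these intervals do not cover the spread between mice.

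The B cell term of the rule bore on these shares. Of cells with CD3 and Foxp3 UMIs, 59 of 140 (42.1%) with gluten and 26 of 192 (13.5%) with HC alone carried a Cd79a or Ms4a1 UMI and were left out. They had median UMIs of 12590 and 12058.5 against 3322 and 4107 in the rest. When these genes were allowed, 86 and 136 cells counted as regulatory T cells, and the difference was 0.0363 points [-1.92, 2.10] among T cells and -0.170 points [-1.50, 1.23] among CD3 carriers. When every cell was thinned to 1500 UMIs it was -0.342 points [-1.85, 1.38] among T cells and -0.595 points [-1.60, 0.506] among CD3 carriers.

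**Figure D4:**
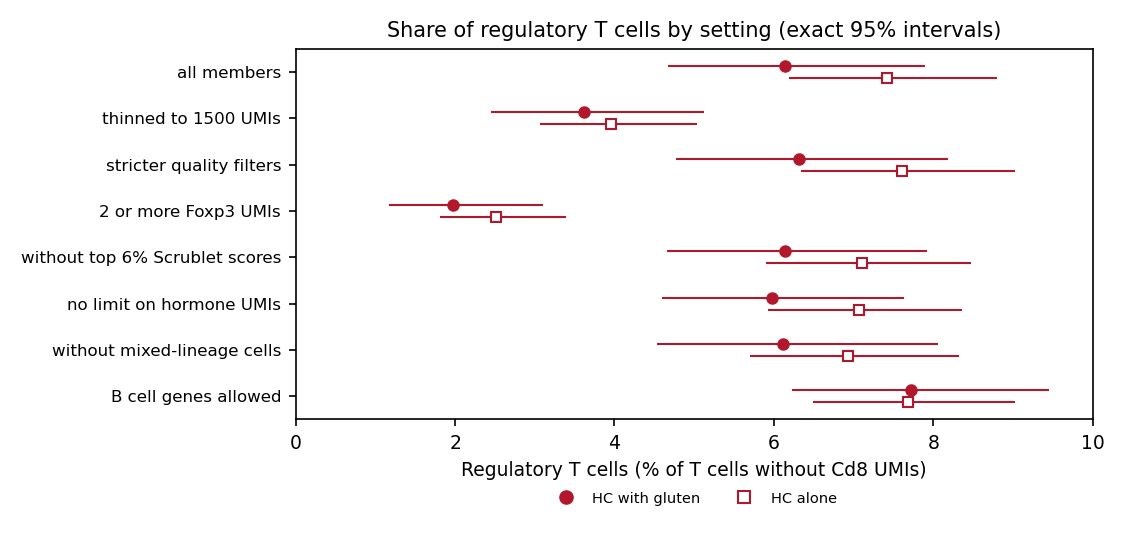
Regulatory T cells as a share of the T cells that met the other terms of the rule (horizontal axis, %), for the stated rule and 7 other settings; filled circles are the library with gluten, open squares HC alone, and bars are exact 95% binomial intervals. The intervals of the 2 libraries overlap in each setting, from 6.14% and 7.42% with all members to 7.72% and 7.68% with B cell genes allowed.

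The last question was which genes of regulatory T cells differed between the diets. Genes entered this comparison when the library with the higher CPM held 50 or more UMIs of them, and they were called apart at a CPM ratio of 2 or more. With all members 48 of 1446 genes were apart and higher with gluten (3.32%) and 80 lower (5.53%). The genes farthest apart there were acinar genes, which came from the single cell named above, and stromal and myeloid genes such as Apoe (2 against 438 UMIs). Without mixed-lineage cells 15 of 827 were higher (1.81%) and 36 lower (4.35%). This split depends on the minimum, because the library with HC alone was deeper: with the CPM of 50 UMIs in the shallower library asked of every gene, 15 of 346 were higher and 2 lower. The values below are without mixed-lineage cells, as log2 ratios of CPM with gluten over HC alone and 95% intervals for counting error.

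The genes farthest above 0 with gluten were of mixed function. Vps37b, a component of the endosomal sorting machinery, stood at 652 against 118 CPM (2.46 [1.92, 3.03]) and was detected in 35 of 47 and 29 of 105 cells. Odc1, the first enzyme of polyamine synthesis, stood at 718 against 142 CPM (2.34 [1.83, 2.86]). Rgs2, a regulator of G protein signalling, stood at 1213 against 343 CPM (1.82 [1.47, 2.17]). Tnfaip3 (A20), an inhibitor of NF-kappa-B signalling, stood at 668 against 201 CPM (1.73 [1.26, 2.20]). The transcription factor gene Junb stood at 4957 against 2192 CPM (1.18 [1.02, 1.33]) and Bhlhe40 at 627 against 201 CPM (1.64 [1.16, 2.12]).

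The other T cell classes had ratios of the same sign. In Foxp3-negative CD4 and in CD8 T cells Vps37b had log2 ratios of 1.68 and 1.81, Rgs2 of 1.57 and 1.55, Tnfaip3 of 1.72 and 1.68, and Bhlhe40 of 1.75 and 1.71. Odc1 had 2.17 and 1.49. Ubald2 (1.39 and 1.43), Gna13 (1.73 and 1.79) and Fam107b (1.27 and 0.84) were other genes of this kind. Ccl5 stood at 1485 against 531 CPM in regulatory T cells (1.48 [1.18, 1.78]), in 17 of 47 and 23 of 105 cells, with a ratio of 1.47 in CD4 and 0.48 in CD8 T cells. The hormone gene Sst (1.55 [1.02, 2.08]) was also higher in all 3 classes.

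Lower with gluten were Pou2f2 (74.2 against 268 CPM, -1.85 [-3.02, -0.87]), Slfn2 (190 against 453 CPM, -1.26 [-1.95, -0.62]), Irf8 (41.2 against 153 CPM, -1.89 [-3.57, -0.58]) and Ifi203 (115 against 271 CPM, -1.23 [-2.15, -0.42]). Ccl4 had 0 against 68 UMIs, the latter in 10 cells, while it was higher with gluten in CD4 (1.62) and CD8 T cells (1.25). Penk, the enkephalin precursor gene, had 0 against 58 UMIs in 7 cells, and 56.9% of these lay in 1 cell. Dync1i2, Hcst, Set, Lrrfip1 and Rhoh were the other genes with the intervals farthest below 0. With the same CPM minimum for both libraries, 2 of 346 genes were lower. Most of the 36 lower genes thus entered only at the lower CPM that 50 UMIs make in the deeper library.

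Among the identity genes both directions were seen. Of 18 with at least 10 UMIs, 7 were higher and 11 lower with gluten, with a median log2 ratio of -0.13 (-0.08 over all 5578 such genes). The interval lay above 0 for 2 of the 18 and below 0 for 3, against 4.5% and 3.42% of all such genes. Tnfrsf4 stood at 660 against 1132 CPM (-0.78 [-1.14, -0.43]), whereas in CD4 T cells it stood at 385 against 275 CPM (0.48). One cell held 11.6% of the Tnfrsf4 UMIs with HC alone. Tnfrsf18 (379 against 537 CPM, -0.50 [-0.995, -0.031]) and Tnfrsf1b (41.2 against 113 CPM, -1.45 [-3.15, -0.11]) were also lower. Ctla4 stood at 1023 against 614 CPM (0.74 [0.41, 1.06]) and Itgae at 214 against 118 CPM (0.86 [0.10, 1.59]). Ikzf2 (-0.12 [-0.45, 0.20]), Il2ra (0.40 [-0.58, 1.31]), Izumo1r (0.26 [-0.05, 0.56]) and Capg (0.37 [-0.12, 0.84]) had intervals that include 0. The differences of Tnfrsf4 between the cell classes were not tested, since each class is 1 sum per diet.

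**Figure D5:**
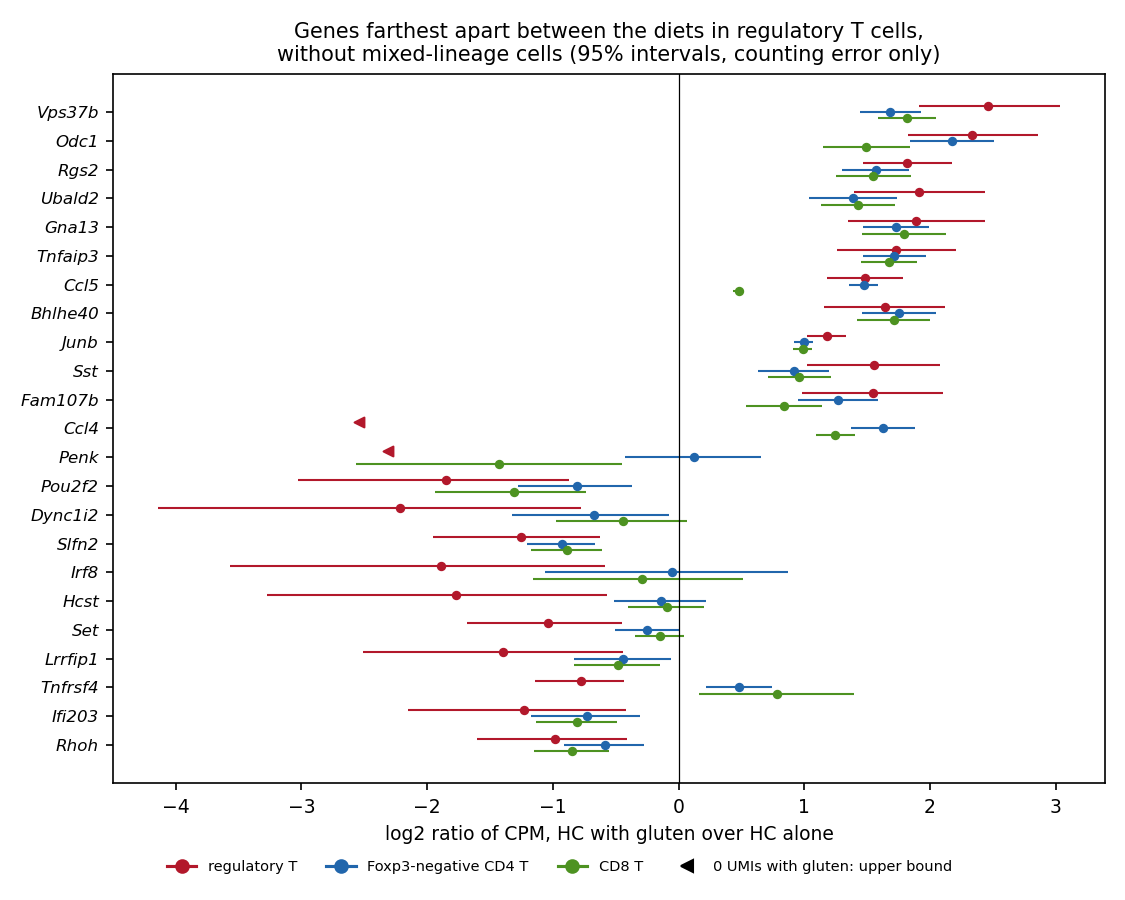
Log2 ratio of CPM with gluten over HC alone (horizontal axis) for genes among those farthest from 0 in regulatory T cells without mixed-lineage cells, beside the same ratios in Foxp3-negative CD4 and CD8 T cells; bars are 95% intervals for counting error, and an arrow is the upper bound for a gene with 0 UMIs with gluten. Vps37b to Junb lie to the right in all 3 classes, and Tnfrsf4 lies at -0.78 in regulatory T cells and at 0.48 in CD4 T cells.

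Of the effector or tissue genes, Areg (132 against 37.6 CPM, 1.81 [0.68, 2.96]), Nfil3 (322 against 88.5 CPM, 1.86 [1.16, 2.58]), Rora (297 against 121 CPM, 1.30 [0.62, 1.96]) and Icos (503 against 343 CPM, 0.55 [0.09, 1.00]) were higher with gluten. The Areg ratio rests on 14 UMIs with HC alone, 10 of them in the 1 cell named above. S100a4 (338 against 579 CPM, -0.78 [-1.30, -0.29]) and Lgals1 (619 against 807 CPM, -0.38 [-0.77, -0.02]) were lower. The 18 members had a median of 0.25, and the same list had a median of 0.31 in CD4 and in CD8 T cells. The 14 genes of T cell receptor activity had a median of -0.07. Among them Rel (305 against 115 CPM, 1.40 [0.73, 2.07]) and Nr4a2 (1.06 [0.19, 1.90]) were higher and Dusp2 (173 against 319 CPM, -0.88 [-1.63, -0.20]) was lower, and the intervals of the other 11 include 0. Immediate early genes respond within minutes to stimulation or to tissue handling. They had a median of 0.47 over 17 genes in regulatory T cells, 0.53 in CD4 and 0.58 in CD8 T cells. The interferon response genes had a median of -0.29 over 21 genes in regulatory T cells, against -0.32 in CD4 and -0.43 in CD8 T cells. The median over all genes in regulatory T cells, given above, was also slightly below 0. Heat shock genes had a median of -0.08 over 8 genes in regulatory T cells and of 0.46 and 0.41 over 11 genes in CD4 and CD8 T cells, a difference that was not tested. RNA of other origin moved with diet too: beta cell markers summed to 13863 against 7513 CPM in all regulatory T cells and 13377 against 9565 CPM in CD4 T cells, and its part in these ratios was not tested.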

How the data were processed

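Single-cell suspensions were profiled with the 10x Genomics 3′ v3 chemistry, per the labels' protocols. The authors deposited 1 table per library of raw UMI counts per gene and barcode. Cell Ranger 4.0.0 and the mm10 build are named in the submitters' processing notes; for the annotation release and barcode calling, no details are given in the sources used here. Ensembl identifiers were matched to GENCODE symbols (30934 of 31053).

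Barcodes with at least 500 UMIs and 200 genes and at most 20% mitochondrial UMIs were kept. Depth was 88268070 and 116900677 UMIs over all barcodes. Cells were selected by the stated rule with Python 3.11.15, numpy 2.4.6 and scipy 1.17.1. UMI counts were summed per library and class, filtered with filterByExpr and tested with edgeR 4.0.16 (R 4.3.3) with the library as a block, which leaves 1 residual degree of freedom, moderated over genes. DESeq2 1.42.0 was an alternative. The test was checked on data of known answer. Log2 ratios between diets have exact conditional binomial intervals, which cover counting error only.

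Scrublet in scanpy 1.11.5 marked 3 of 7577 and 2 of 7565 cells as doublets by its own threshold (0.0396% and 0.0264%) and was taken not to have worked; an alternative left out the 6% of cells with the highest score. Mixed-lineage cells held 10 or more UMIs of another lineage's markers. The members and gene lists were chosen with earlier results of these data known. Genes were named by rule: the 5 markers; per test the 15 genes in each direction with the largest fold change among those called, with the same sign in both libraries and at least 30 UMIs, without rule, ribosomal, mitochondrial and receptor or immunoglobulin variable genes; for diet the 12 genes in each direction with the interval farthest from 0; and members of the lists with at least 10 UMIs. A few items are not reported here.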

Additional observations from a re-analysis of the deposited data

Results flagged for a closer look

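Cells that carried CD3 and Foxp3 UMIs together with a Cd79a or Ms4a1 UMI, which the rule leaves out, were 42.1% [33.9, 50.8] of 140 such cells in the library with gluten. In the library with HC alone they were 13.5% [9.04, 19.2] of 192. Among CD3 carriers with no Foxp3 UMI the shares were 17.0% and 7.57%. Of the left-out cells, 57 and 23 carried at least 3 UMIs of the 2 B cell genes. In the 59 such cells with gluten, Ctla4 stood at 260 CPM, Ikzf2 at 235 CPM, Tnfrsf4 at 331 CPM and Il2ra at 33.6 CPM, beside Cd79a at 887 CPM. A further 34 (24.3%) and 40 (20.8%) of the CD3 and Foxp3 carriers held 2 or more UMIs of the cell-cycle genes and were left out as well, with median UMIs of 18712.5 and 14257.5. Whether these barcodes were single cells was not tested.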

How the results depend on the processing

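No paired analysis was possible because each diet is 1 library, and no replicate numbers tie samples across the diets. Leaving out a replicate was not possible for the same reason. The settings without mixed-lineage cells, with B cell genes allowed, without cells over 10000 UMIs and with 1 CPM minimum for both libraries were chosen after seeing the data. The cause of the changes below was not tested. With 177 sparse cells, depth limits every gene below about 10 UMIs.

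The difference in share among quality-filtered barcodes was -0.455 points after thinning and -0.304 points with 2 or more Foxp3 UMIs, and among T cells it turned to 0.0363 points with B cell genes allowed. Against CD4 T cells, 11 genes were called, and 208 with no filter on low sums, 19 with DESeq2, 65 in cells of 2000 to 6000 UMIs, 451 with a comparator that need not carry Cd4, 185 with 2 or more Foxp3 UMIs, and 245 without mixed-lineage cells (47 by DESeq2). There 0 genes were called by edgeR with no library block (368 at an unadjusted p under 0.05, 19 by DESeq2 with the block) and 0 without the cells of highest Scrublet score (500 at an unadjusted p under 0.05). Against CD8 T cells, 371 genes were called, and 575 with no filter, 86 with DESeq2, 106 with no library block and 160 without mixed-lineage cells by DESeq2. By Ikzf2, 3 genes were called, and 47 with no filter, but 0 by DESeq2 (3 at an unadjusted p under 0.05), and 0 by edgeR with no block (65), in cells of 2000 to 6000 UMIs (47) and without mixed-lineage cells (104).

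Between diets 128 genes were apart, and 607 with at least 20 UMIs, 46 with at least 100 UMIs, 36 in cells of 2000 to 6000 UMIs, 28 with 2 or more Foxp3 UMIs, 51 without mixed-lineage cells, 57 with 1 CPM minimum for both libraries and 17 with both. Of the genes apart, 37.5% were higher with gluten, and 84.2% were with 1 CPM minimum. Single genes that turned direction between diets were Igfbp7 (0.99 in cells of 2000 to 6000 UMIs, 2.38 without cells over 10000 UMIs), Ifitm3 (0.40 in cells of 2000 to 6000 UMIs), Cxcl9 (1.69 with 2 or more Foxp3 UMIs), Ctrb1 (-0.31 with 2 or more Foxp3 UMIs, -0.12 without mixed-lineage cells) and Sycn (-0.26 without acinar cells, -0.38 without mixed-lineage cells). Against CD8 T cells Try4 (-0.41) and Sycn (-0.22) turned in cells of 2000 to 6000 UMIs.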
